A study of Macaca fascicularis with 3 samples.

Results

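The 7 genes studied here control or accompany the switch from mitosis to meiosis, and were followed through cynomolgus monkey germ cells made from embryonic stem cells: ZGLP1, STRA8, ANHX, ZNF483, MEIOC, YTHDC2 and STK31. They were taken by symbol from the feature list, and 7 of 7 were found among 26017 monkey features. The series holds 3 single-cell libraries of xrOvaries, which are aggregates of monkey germ cells with mouse ovarian somatic cells. The germ cells came from 1 embryonic stem cell line, 15XRi-AGVT#7, of wildtype genotype and carrying TFAP2C-EGFP and DDX4-tdTomato reporters, and all libraries carry the same ag49+52 label. The libraries differ in the embryonic day of the mouse cells and are called by it E13.5, E14.5 and, the last, E15.5. There is 1 of each, and values for the libraries are given in that order throughout. Germ cells were sorted on either reporter, so TFAP2C and DDX4 helped to choose them, and were mixed with sorted mouse cells before loading.

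In the fetal ovary, oogonia leave the mitotic cycle, copy their DNA once more and enter meiotic prophase. Work in mice places BMP signals and the BMP-responsive factor ZGLP1, together with retinoic acid and its target STRA8, upstream of this step. STRA8 acts with its partner MEIOSIN to switch on genes of the meiotic chromosome axis. MEIOC and the RNA helicase YTHDC2 bind each other and clear transcripts of the mitotic programme, and STK31 is a Tudor-domain kinase of germ cells. ANHX is a divergent homeobox gene and ZNF483 encodes a zinc finger protein with KRAB and SCAN domains.

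Germ barcodes were those with 2 to 20% of UMIs (counted molecules) in the 13 mitochondrially encoded genes and at least 10000 UMIs. There were 537, 536 and 1113 of them among 2807, 1565 and 3455 deposited barcodes of the 3 libraries, or 2186 of 7827, with medians of 55620, 43003 and 48553 UMIs. DAZL, a germ cell RNA-binding protein, had a UMI in 97.4 to 99.8% of them per library, against 4.60 to 8.51% of mouse barcodes. POU5F1-high cells (at least 2 POU5F1 UMIs per 10000) numbered 461, SYCE3-high cells (at least 4 SYCE3 UMIs per 10000) 148, and the POU5F1-low cells that were neither 1577. SYCE3-high cells numbered 36, 39 and 73 in the 3 libraries. None of the 7 genes entered these limits, which are ranges and not cell types: 31 and 23 cells lay within 1.5-fold below and above the POU5F1 limit, and 57 and 49 around the SYCE3 limit. The submitters' cell type for all libraries is early oogonia. By the summed early markers TFAP2C, SOX17, NANOG, PRDM1 and NANOS3 this matched the POU5F1-high cells, at 827 to 905 CPM (UMIs of the gene scaled to a library size of 1000000 UMIs), while POU5F1-low cells had 128 to 158 CPM and SYCE3-high cells 28.9 to 64.1 CPM.

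Libraries shared cell barcodes: 199 between E13.5 and E14.5, 643 between E13.5 and E15.5, and 212 between E14.5 and E15.5. Of the 2186 germ barcodes 669 also occurred in another library, in 0 cases as a germ barcode there, and the median depth of the second copy was 611 to 1494.5 UMIs. Sharing differed between states. It touched 1.74% of POU5F1-high, 35.4% of POU5F1-low and 68.9% of SYCE3-high cells, so results on the last state were also computed without the shared barcodes. Of the 148 SYCE3-high cells 46 remained, 7, 27 and 12 by library, and only E14.5 kept the 20 cells needed for a sum. A fit on that state without shared barcodes thus has 1 sample, assumed to vary like the other states. Its p-values and calls are not given below and enter only the tally of values over the alternatives.

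The levels of the 7 genes followed 3 courses through the states, as the plot of levels by state shows. ZGLP1 and ZNF483 were highest in POU5F1-low cells and fell in SYCE3-high cells. STRA8 and ANHX rose steeply from POU5F1-high to POU5F1-low cells and were somewhat lower in SYCE3-high cells. MEIOC, STK31 and YTHDC2 rose at both steps. In POU5F1-low against POU5F1-high cells 7 of 7 were higher in edgeR's quasi-likelihood test (adjusted p under 0.05), where 35.0% of all 15075 genes tested were higher, 33.3% lower and 68.3% either. In SYCE3-high against POU5F1-low cells 3 were higher and 4 lower, where 27.4% of all genes were higher, 27.3% lower and 54.7% either. Library totals in place of TMM scaling moved the median of all genes in the first comparison from 0.032 to 0.53 (log2) and its calls from 5271 higher and 5023 lower to 8952 and 2377, and the 7 genes stayed higher under both. Fold changes use TMM scaling and the CPM do not, so a fold change is smaller at this step than the ratio of the CPM beside it.

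**Figure D1:**
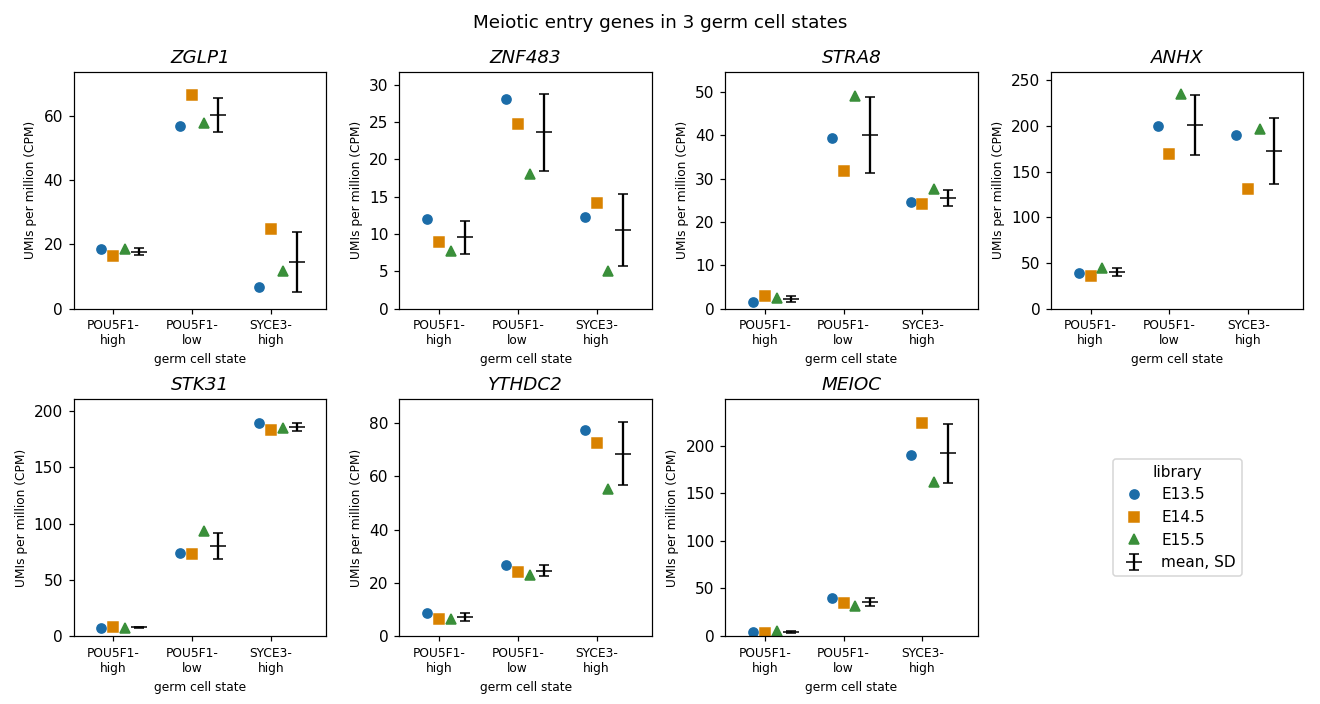
Levels of the 7 genes in CPM (vertical axis, from 0) in POU5F1-high, POU5F1-low and SYCE3-high germ cells; each symbol is 1 library, and the bar gives the mean ± SD of the 3 libraries. MEIOC sits between 162 and 224 CPM in SYCE3-high cells, above every POU5F1-low value, while ZGLP1 drops from 56.9 to 66.5 CPM in POU5F1-low cells to 6.77 to 24.8 CPM.

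ZGLP1, a GATA-type zinc finger factor that in mice turns germ cells to the oogenic fate, was already present in POU5F1-high cells. It stood there at 18.5, 16.4 and 18.4 CPM, in POU5F1-low cells at 56.9, 66.5 and 57.7 CPM, and in SYCE3-high cells at 6.77, 24.8 and 11.7 CPM. All 3 POU5F1-low values lay above all others, while the POU5F1-high and SYCE3-high ranges overlapped. The first step was a log2 fold change of 1.26 ± 0.17 (SE; edgeR adjusted p = 2.83e-05) and the second one of -2.20 ± 0.22 (edgeR adjusted p = 5.04e-06), each in the same direction in 3 of 3 libraries. The E14.5 value in SYCE3-high cells rests on few cells: 1 cell held 23 of its 42 UMIs, and 6 of 39 cells had any. Without shared barcodes the SYCE3-high levels of ZGLP1 were 10.5, 25.7 and 0 CPM, and the fitted difference, from E14.5 alone, was -1.44.

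STRA8, the retinoic acid target needed for meiotic initiation in mice, was nearly absent before POU5F1 fell. Its levels were 1.56, 2.88 and 2.46 CPM in POU5F1-high cells, 39.3, 31.7 and 49.2 CPM in POU5F1-low cells, and 24.6, 24.2 and 27.6 CPM in SYCE3-high cells. The 3 ranges did not overlap. The mouse barcodes of the same libraries held 1.20, 1.62 and 2.11 CPM, with exact Poisson 95% intervals of 0.657 to 2.02, 0.742 to 3.08 and 1.35 to 3.14 CPM. Each POU5F1-high level was above the mouse level of its library and inside that interval, so no expression is read from it. STRA8 had the largest change of the 7 genes at the first step, 3.61 ± 0.19 (log2, SE; edgeR adjusted p = 8.15e-12), which ranked 220 of 15075 genes from the top. From POU5F1-low to SYCE3-high cells its log2 fold change was -0.75 ± 0.15 (edgeR adjusted p = 0.000484). That second call ended when the POU5F1 and SYCE3 limits were set at 50% of their values (-0.11, edgeR adjusted p = 0.408). Without shared barcodes the SYCE3-high levels were 10.5, 23.8 and 19.9 CPM and the difference fitted on E14.5 was -0.60.

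ANHX, the homeobox gene, followed STRA8 up but stayed near its peak. It stood at 39.5, 35.8 and 44.3 CPM in POU5F1-high cells, at 199.8, 169.7 and 235 CPM in POU5F1-low cells, and at 190.3, 131 and 197 CPM in SYCE3-high cells. The first 2 ranges were apart, with a log2 fold change of 1.83 ± 0.088 (SE; edgeR adjusted p = 3.09e-12). The POU5F1-low and SYCE3-high ranges overlapped, and within each library the SYCE3-high value was the lower. Its log2 fold change of -0.30 ± 0.085 (edgeR adjusted p = 0.00581) did not pass without the library term (adjusted p = 0.0882), without E15.5 (adjusted p = 0.0787) and with the state limits at 50% (adjusted p = 0.0582), all in edgeR. Fitted on E14.5 alone it was -0.26 without shared barcodes, where the SYCE3-high levels were 131, 157 and 211 CPM.

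ZNF483 moved least at the first step. It was at 12.1, 8.91 and 7.67 CPM in POU5F1-high cells, 28.1, 24.7 and 18.0 CPM in POU5F1-low cells, and 12.3, 14.2 and 5.11 CPM in SYCE3-high cells. POU5F1-low cells were above the others in every library, and the E15.5 value was the lowest of the 3 libraries in each state. The gain was 0.80 ± 0.15 (log2, SE; edgeR adjusted p = 0.000142) and the later loss -1.36 ± 0.20 (edgeR adjusted p = 1.81e-05). Without shared barcodes the SYCE3-high levels were 21.0, 17.8 and 0 CPM, and the difference fitted on E14.5 was -0.45.

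MEIOC, the YTHDC2 partner that helps to end the mitotic programme, had its main gain late. Its levels were 4.24, 3.59 and 5.06 CPM in POU5F1-high cells, 40.4, 34.3 and 31.8 CPM in POU5F1-low cells, and 190.3, 224 and 162 CPM in SYCE3-high cells. The 3 ranges were well apart. The 2 steps were close in size on the log2 scale, 2.45 ± 0.16 (SE; edgeR adjusted p = 8.98e-10) and then 2.35 ± 0.12 (edgeR adjusted p = 7.38e-11), and in CPM the second added far more. SYCE3-high cells, 6.77% of the germ cells, held 31.0% of all MEIOC UMIs. Without shared barcodes the SYCE3-high levels were 94.4, 219 and 96.8 CPM. E13.5 and E15.5 were then lower than with them, and each library was still above every POU5F1-low value. The step fitted on E14.5 was 2.75.

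YTHDC2, the helicase with a YTH domain that binds N6-methyladenosine in RNA, rose in parallel at lower amplitude. It went from 8.70, 6.18 and 6.36 CPM in POU5F1-high cells to 26.7, 24.0 and 23.0 CPM in POU5F1-low cells and 77.6, 72.7 and 55.1 CPM in SYCE3-high cells. The ranges did not overlap. The log2 fold changes were 1.31 ± 0.14 (SE; edgeR adjusted p = 1.29e-07) and 1.38 ± 0.12 (edgeR adjusted p = 2.69e-08). Without shared barcodes the SYCE3-high levels were lower, at 47.2, 54.5 and 34.2 CPM, against 20.4, 23.2 and 19.2 CPM in POU5F1-low cells. The mouse barcodes of the same libraries held YTHDC2 at 12.1, 18.7 and 10.8 CPM, above the POU5F1-high value in each, so no expression is read from its POU5F1-high level.

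STK31, the Tudor-domain kinase, rose from 7.14, 8.34 and 7.38 CPM in POU5F1-high cells to 74.0, 72.5 and 93.4 CPM in POU5F1-low cells and 189.6, 183 and 185 CPM in SYCE3-high cells. No ranges overlapped. Its log2 fold changes were 2.91 ± 0.13 (SE; edgeR adjusted p = 8.56e-13) and 1.14 ± 0.098 (edgeR adjusted p = 2.81e-08). Single cells differed widely: 1 POU5F1-low cell of E14.5 held 75 STK31 UMIs, while 69.6% of POU5F1-low cells held any. Without shared barcodes the POU5F1-low levels were 41.1, 51.4 and 54.0 CPM, below those of all POU5F1-low cells, and the first step was 2.35 (log2). The SYCE3-high levels were then 162.6, 160.4 and 182.3 CPM.

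Other values moved with the states and their part in these results was not tested. The summed stress genes FOS, JUN, EGR1 and ATF3 stood at 113 to 163 CPM in POU5F1-high, 234 to 274 CPM in POU5F1-low and 862, 198 and 518 CPM in SYCE3-high cells. The 3 surface epithelium markers UPK3B, LHX2 and KRT19 summed to 24.5, 44.3 and 31.9 CPM in POU5F1-high, 209, 272 and 189 CPM in POU5F1-low and 44.9, 163 and 97.3 CPM in SYCE3-high cells, so that like ZGLP1 they were highest in POU5F1-low cells, and UPK3B was at 0 in 1 of the 9 sums. The 6 supporting cell markers summed to 8.32 to 30.3, 34.0 to 57.2 and 49.1 to 100.3 CPM in the same order, and the 6 stromal markers to 18.7 to 43.3, 73.4 to 98.0 and 62.1 to 116 CPM, with AMH at 0 in 2 sums and COL3A1 in 1. The 3 endothelial markers PECAM1, CDH5 and KDR went the other way, at 32.8, 42.6 and 37.0 CPM in POU5F1-high, 11.2, 8.98 and 11.8 CPM in POU5F1-low and 4.31, 0.591 and 7.15 CPM in SYCE3-high cells, with KDR at 0 in 3 sums and CDH5 in 2. Median depth was 51087, 48420 and 43816 UMIs.

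Shares of cells with a UMI were compared after thinning each cell to 20000 UMIs, which left out 12, 24 and 25 shallower cells. STRA8 was then detected in 2.61% of POU5F1-high cells (12 of 460, 95% Clopper-Pearson interval 1.36 to 4.51%), 45.9% of POU5F1-low and 34.8% of SYCE3-high cells. Unthinned the shares were 8.46%, 65.8% and 50%, and 1.05% of mouse barcodes at a median of 6050 UMIs. ZGLP1 was detected in 25.9%, 60.4% and 15.6% of thinned cells of the 3 states (46.2%, 78.5% and 23.0% unthinned, mouse barcodes 0.903%). MEIOC was detected in 6.96%, 45.3% and 94.3% (16.9%, 65.0% and 98.6% unthinned, mouse barcodes 0.464%). Thus MEIOC RNA was detected in nearly all SYCE3-high cells. At the low level of ZGLP1 there, a cell without a UMI at this depth may still hold its RNA. For STK31 the thinned shares were 9.78%, 53.7% and 92.2%, for YTHDC2 11.5%, 36.4% and 64.5%, for ANHX 40.7%, 92.5% and 87.9%, and for ZNF483 13.48%, 33.1% and 13.48%. The mouse barcodes had 1.12%, 8.22%, 3.42% and 0.829% for these 4 genes. These intervals cover counting error only. A POU5F1-high cell had a median of 1 of the 7 genes detected in each library, a POU5F1-low cell 3 or 4, and a SYCE3-high cell 4. All 7 were found together in 5 of 420, 6 of 337 and 4 of 767 thinned POU5F1-low cells.

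To order the onsets, germ cells of all libraries were ranked by the summed synaptonemal complex and axis genes minus the summed early oogonia and pluripotency genes, both on a log2 scale, and cut into 10 bins of 218 or 219 cells. None of the 7 genes is in either list. POU5F1-high cells filled bin 1 (100%) and made up 88.6% of bin 2 and 19.3% of bin 3, and SYCE3-high cells made up 56.9% of bin 10. Onset was set at the first bin that reached 50% of the gene's highest bin in that library. No test was made, since the cells of 1 library are not replicates.

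ZNF483 reached its onset in bins 2, 3 and 3, and ZGLP1 in bin 3 in every library. STRA8 followed in bins 3, 4 and 4, and ANHX in bins 3, 3 and 4. STK31 came in bins 8, 7 and 8, YTHDC2 in bins 9, 9 and 7, and MEIOC in bins 9, 10 and 10. The 7 genes thus fell into an early set of 4, with onsets in bins 2 to 4, and a late set of 3, with onsets in bins 7 to 10, with no overlap in any library. The bins depend on the limit, and an onset so set is not the first bin with RNA. At 25% of the highest bin MEIOC had its onset in bins 6, 8 and 7. YTHDC2 then came in bins 5, 5 and 4, and STK31 in bins 6, 5 and 4. The early set then lay in bins 1 to 3, still without overlap in any library. The division ended without shared barcodes, as given below.

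Within the early set the courses differed. ZGLP1 climbed from 8.06, 5.34 and 11.2 CPM in bin 1 to 69.0, 71.6 and 61.2 CPM in bin 3, peaked in bins 5, 4 and 5, and dropped to 16.6, 11.05 and 27.2 CPM in bin 10. STRA8 was still at 26.1, 17.2 and 18.2 CPM in bin 3 and peaked at 49.005, 46.2 and 67.3 CPM in bins 5, 7 and 9. In each library ZGLP1 therefore peaked no later than STRA8, and in E14.5 and E15.5 earlier. ANHX kept a plateau to bin 10 in E13.5 and E15.5, at 231 and 254 CPM, and was at 113 CPM there in E14.5.

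Within the late set MEIOC had the sharpest end. It rose from 1.51, 1.21 and 1.83 CPM in bin 1 to 17.8, 11.8 and 14.3 CPM in bin 3. MEIOC reached 44.7, 50.5 and 36.8 CPM in bin 8. It then stood at 83.6, 71.0 and 46.2 CPM in bin 9 and at 141, 196 and 131 CPM in bin 10. STK31 rose more evenly, from 11.1, 13.6 and 29.9 CPM in bin 3 to 191, 206 and 191 CPM in bin 10. YTHDC2 was at 36.3, 33.6 and 33.7 CPM in bin 9 and at 68.7, 64.8 and 50.3 CPM in bin 10. All 3 late genes had their highest bin in bin 10 in every library. Without shared barcodes, with redrawn bins, the last MEIOC bin was lower, at 43.3, 139.7 and 52.5 CPM, and in E13.5, where bin 9 was the last with 20 cells, its highest was bin 8 at 46.02 CPM.

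The order ZGLP1, STRA8, STK31, MEIOC, ties allowed, describes these onsets in 3 of 3 libraries. It was not named beforehand and leaves out ZNF483, ANHX and YTHDC2. ANHX came before STRA8 in E14.5 (bin 3 against 4) and YTHDC2 before STK31 in E15.5 (bin 7 against 8). The order also held in 3 of 3 with 20 bins, with onset at 25% of the highest bin, and with the meiotic recombination genes in place of the axis genes. Without shared barcodes, with bins redrawn over the remaining 1517 cells, it held in 2 of 3: in E15.5 MEIOC then had its onset in bin 7 and STK31 in bin 9, and YTHDC2 moved to bins 5, 7 and 5. STRA8 then stood at bins 5, 6 and 5 and ANHX at bins 4, 4 and 5, so that the early and late onsets met in bin 5 in E13.5 and E15.5.

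**Figure D2:**
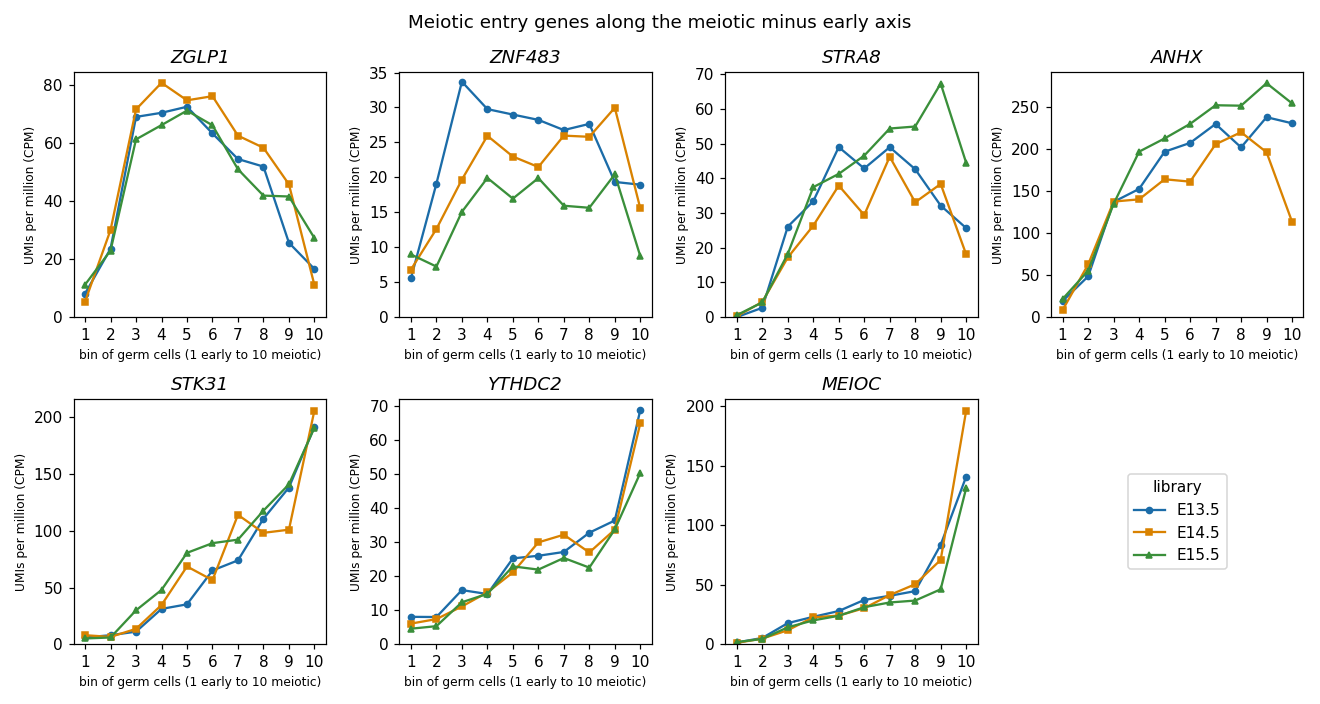
Levels of the 7 genes in CPM (vertical axis, from 0) over 10 bins of germ cells ranked from early (bin 1) to meiotic (bin 10); each line is 1 library. ZGLP1 reaches 61.2 to 71.6 CPM by bin 3 and declines after bin 6, STRA8 peaks in bins 5 to 9, and MEIOC, YTHDC2 and STK31 have their highest level in bin 10.

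Cycling state was read from MKI67, a marker of cycling cells, with MKI67-high set at 2 UMIs per 10000. This took 25.8% of POU5F1-high, 34.8% of POU5F1-low and 14.2% of SYCE3-high cells, and 142 and 143 germ cells lay within 1.5-fold below and above the limit. Within POU5F1-low cells 4 of the 7 genes differed in edgeR's test, 2 lower and 2 higher in MKI67-high cells, where 21.4% of all 15579 genes were lower, 24.3% higher and 45.7% either. MKI67-high POU5F1-low cells had a higher median depth than MKI67-low ones, 59987 against 43528 UMIs. The part of this difference in the results below was not tested. The plot of levels by MKI67 class shows the 2 clear cases, STRA8 and STK31.

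STRA8 was at 25.7, 19.4 and 31.2 CPM in MKI67-high against 51.0, 40.8 and 61.5 CPM in MKI67-low POU5F1-low cells. The 2 ranges did not overlap, and the log2 fold change was -0.89 ± 0.066 (SE; edgeR adjusted p = 4.71e-09). STK31 was at 53.8, 57.4 and 61.2 CPM against 91.4, 83.8 and 115 CPM, also without overlap, a log2 fold change of -0.67 ± 0.058 (edgeR adjusted p = 4.56e-08). Both were lower in MKI67-high cells under each of the 13 alternatives.

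ZNF483 and ANHX were slightly higher in MKI67-high cells. ZNF483 was at 31.5, 27.3 and 18.6 CPM against 25.2, 22.8 and 17.6 CPM, and ANHX at 204, 180.1 and 243 CPM against 196, 162 and 229 CPM. The ranges of both overlapped between classes, although each library had the higher value in MKI67-high cells. The log2 fold changes were 0.32 ± 0.081 (edgeR adjusted p = 0.00365) and 0.20 ± 0.039 (edgeR adjusted p = 0.000501). Both calls ended without the library term, without the deepest and mixed barcodes, and without shared barcodes, which left 2 of 7 genes called, both lower. That of ZNF483 also ended with DESeq2 (adjusted p = 0.0754).

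For ZGLP1, MEIOC and YTHDC2 no difference was called. ZGLP1 stood at 54.3, 68.0 and 56.1 CPM in MKI67-high and 59.2, 65.4 and 58.8 CPM in MKI67-low cells (log2 fold change 0.051 ± 0.056, edgeR adjusted p = 0.480). MEIOC stood at 37.1, 38.8 and 33.1 against 43.3, 30.9 and 30.9 CPM (0.15 ± 0.083, edgeR adjusted p = 0.166), with E13.5 against the other libraries. Without E13.5 MEIOC was called higher, at 0.30 (edgeR adjusted p = 0.00140), and so it was with no filter on low counts (0.18, edgeR adjusted p = 0.0420). YTHDC2 was at 22.5, 23.4 and 20.4 against 30.4, 24.4 and 24.8 CPM (-0.18 ± 0.083, edgeR adjusted p = 0.0952), lower in 3 of 3 libraries and without overlap. Library totals in place of TMM moved the median of all genes in this comparison from -0.019 to -0.12 (log2) and its calls from 3791 higher and 3333 lower to 2366 and 4935. Under those totals YTHDC2 was called lower (-0.28, edgeR adjusted p = 0.0115), as with the MKI67 limit at 50% (-0.24, edgeR adjusted p = 0.0382), and ANHX was not called (0.091, edgeR adjusted p = 0.0641).

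MEIOC RNA in POU5F1-high cells, a case picked after its values were seen, lay mostly in cycling cells. It was at 8.74, 8.53 and 9.55 CPM in MKI67-high POU5F1-high cells and at 2.70, 1.61 and 2.90 CPM in MKI67-low ones, in every library higher in the cycling cells. These rest on 10, 17 and 43 UMIs against 9, 8 and 27, and the exact Poisson 95% intervals were apart in E14.5 (4.97 to 13.7 against 0.696 to 3.18 CPM) and E15.5 (6.91 to 12.9 against 1.91 to 4.21 CPM) and overlapped in E13.5 (4.19 to 16.1 against 1.23 to 5.12 CPM). No test was made, and the E13.5 class held 15 cells. Median depth here was 61498 UMIs in MKI67-high against 48400.5 UMIs in MKI67-low POU5F1-high cells.

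**Figure D3:**
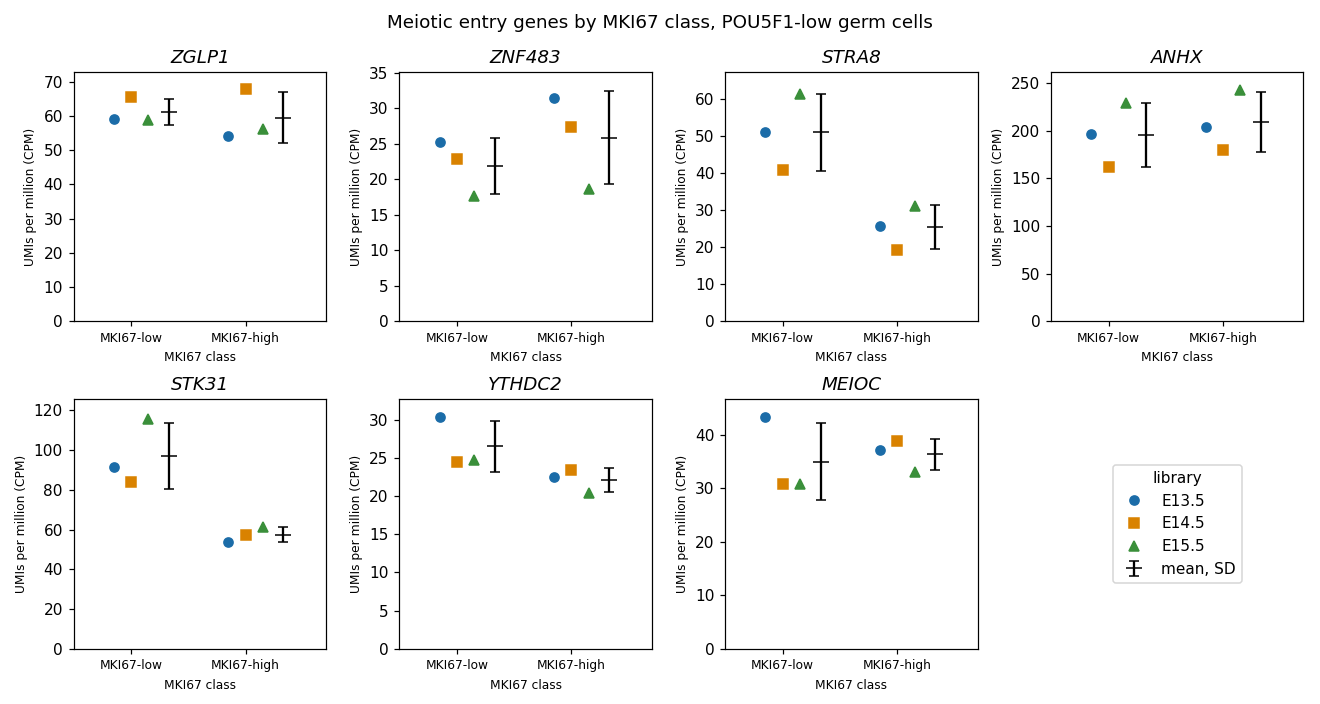
Levels of the 7 genes in CPM (vertical axis, from 0) in MKI67-low and MKI67-high POU5F1-low germ cells; each symbol is 1 library, and the bar gives the mean ± SD of the 3 libraries. STRA8 and STK31 are lower in MKI67-high cells with no overlap, at 19.4 to 31.2 and 53.8 to 61.2 CPM, the uncalled YTHDC2 also has no overlap, and the ranges of ZGLP1, ANHX, ZNF483 and MEIOC overlap.

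To see what accompanies STRA8 RNA, POU5F1-low cells with at least 1 STRA8 UMI per 10000 (61, 40 and 130 cells) were set against those with 0 STRA8 UMIs (133, 159 and 247 cells). STRA8 itself set the classes and was not tested. Of the other 6 genes 4 were higher in STRA8-positive cells, where 9.99% of all 14300 genes were higher, 11.2% lower and 21.2% either. STRA8-positive cells had lower median depth, 40978 against 46126 UMIs, and fewer were MKI67-high, 13.4% against 41.4%. The part of these differences in the results below was not tested.

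MEIOC was at 54.2, 67.6 and 46.1 CPM in STRA8-positive and 36.4, 25.7 and 26.0 CPM in STRA8-negative cells, with no overlap and a log2 fold change of 0.83 ± 0.12 (SE; edgeR adjusted p = 3.83e-06). ANHX was at 218, 275 and 319 against 151, 143 and 172 CPM, also apart (0.73 ± 0.080, edgeR adjusted p = 1.74e-08). Both passed in 12 of 12 alternatives, in which MEIOC ranged from 0.50 to 1.12 and ANHX from 0.36 to 0.85.

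YTHDC2 was at 31.0, 39.3 and 31.6 CPM against 23.9, 21.8 and 18.5 CPM, without overlap (0.61 ± 0.13, edgeR adjusted p = 0.000744). ZGLP1 was at 61.6, 88.3 and 67.7 against 42.4, 60.1 and 48.5 CPM, again without overlap (0.47 ± 0.095, edgeR adjusted p = 0.000384). Without the deepest and mixed barcodes neither passed (0.31 and 0.41, edgeR adjusted p = 0.537 and 0.144), which left MEIOC and ANHX. YTHDC2 also missed with DESeq2 (adjusted p = 0.0535) and ZGLP1 in edgeR without the library term (adjusted p = 0.101). ZNF483 was at 27.9, 29.7 and 20.5 against 24.8, 22.4 and 16.6 CPM and was not called (0.23 ± 0.14, edgeR adjusted p = 0.243).

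STK31 was at 85.2, 69.0 and 97.3 CPM in STRA8-positive against 69.3, 73.9 and 103 CPM in STRA8-negative cells. The ranges overlapped and the libraries went different ways, and no difference was called (-0.012 ± 0.093, edgeR adjusted p = 0.949). Without shared barcodes STK31 was called higher, at 0.47 (edgeR adjusted p = 0.00476), and the count of higher genes was then 5 of 6.

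Of the genes around them, REC8, the meiotic cohesin subunit, showed a 302 against 63.2 CPM difference between STRA8-positive and STRA8-negative cells (means of 3 libraries, log2 fold change 2.21 ± 0.084, edgeR adjusted p = 1.28e-20), and was one of 4 of 13 axis genes that were higher, with 2 lower. Of 14 tested retinoic acid genes 6 were higher and 0 lower, with a list median of 0.36 against -0.00080 for all genes. They included the retinoic acid-degrading enzyme CYP26A1 (36.9 against 13.6 CPM, 1.37 ± 0.14) and the carrier protein CRABP2 (168 against 67.6 CPM, 1.32 ± 0.16). Of 14 mitotic cycle genes 8 were lower and 2 higher, among them AURKB, a kinase of chromosome segregation, at 7.33 against 26.2 CPM. NANOS2, an RNA-binding protein of male fetal germ cells that holds back meiosis in mice, was at 0.286 ± 0.496 CPM in STRA8-positive and 8.09 ± 1.40 CPM in STRA8-negative cells (SD, n = 3 libraries, edgeR adjusted p = 2.88e-08). The STRA8-positive mean is below its SD and rests on few UMIs. Its list, germ cell identity and RNA binding, had 2 genes higher, 4 lower and 6 not called of 12 tested. Of 16 BMP response genes 3 were higher and 3 lower, with MSX1 higher and ID4 lower.

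Co-detection was taken in the 1524 POU5F1-low cells thinned to 20000 UMIs, as an odds ratio per library for each of 21 pairs (above 1 means that the 2 genes were found together more often than their single shares give). A small constant was added to each count of cells before the ratio was taken. It is a description with no test. In all 3 libraries 11 pairs were above 1 and 3 below 1, and 7 had libraries on both sides. These counts were 8, 2 and 11 with thinning to 10000 UMIs, and 10, 3 and 8 at 40000 UMIs. They were 9, 3 and 9 at 20000 UMIs without the deepest 5% of cells.

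STRA8 and ANHX had the highest odds ratio of the 21 pairs in each library, at 4.94, 2.43 and 3.36. ANHX was in 391 of 420, 298 of 337 and 721 of 767 of these cells. The ratios thus rest on the few cells without ANHX, and no interval is given for them. Of STRA8-positive thinned cells 96.7% also held ANHX, which was in 92.5% of all thinned POU5F1-low cells. STRA8 with MEIOC gave 1.57, 2.06 and 1.56, STRA8 with YTHDC2 1.17, 1.48 and 1.36, and STRA8 with STK31 1.02, 1.75 and 1.59. STRA8 thus had odds ratios above 1 with each of the 3 late genes in every library, though that with STK31 in E13.5, at 1.02, was close to 1.

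Among the late genes MEIOC with STK31 gave 2.17, 2.14 and 1.54, YTHDC2 with STK31 2.37, 1.98 and 1.59, and MEIOC with its partner YTHDC2 only 1.10, 1.69 and 1.09. ZGLP1 was the gene with odds ratios below 1: 0.643, 0.727 and 0.604 with STK31, 0.840, 0.765 and 0.696 with YTHDC2, and 0.625, 0.762 and 0.969 with MEIOC. STRA8 with ZGLP1 gave 1.73, 0.907 and 1.02, with libraries on both sides of 1. Without shared barcodes 8 pairs were above 1 and 1 below 1 in all libraries, and of the 3 ZGLP1 pairs only that with STK31 stayed below 1 in all, at 0.748, 0.740 and 0.656.

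STRA8 and ZGLP1 divided these cells into 487 with ZGLP1 alone, 434 with both, 265 with STRA8 alone and 338 with neither. In the ranking of cells the mean bin was 5.66 for ZGLP1 alone, 6.05 for both, 6.49 for neither and 7.05 for STRA8 alone. MEIOC was found in 38.8%, 48.2% and 58.1% of these 3 classes and STK31 in 44.8%, 54.4% and 66.8%, while cells with neither had 40.8% and 55.6%. Both genes were most frequent where STRA8 was detected without ZGLP1. For MEIOC the order of ZGLP1 alone, both and STRA8 alone held in 3 of 3 libraries, at 40.3%, 47.2% and 69.8% in E13.5, 38.0%, 46.8% and 68.1% in E14.5, and 38.5%, 49.1% and 50.3% in E15.5. For STK31 it held in E14.5 and E15.5, while E13.5 had 49.2%, 45.5% and 65.1%. MKI67-high cells made up 42.9% of cells with ZGLP1 alone, 26.5% of those with both, 27.2% of those with STRA8 alone and 42.6% of those with neither, so the 2 STRA8 classes had the lower shares. Detection of 1 to a few UMIs at this depth misses cells, and neither means not detected.

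**Figure D4:**
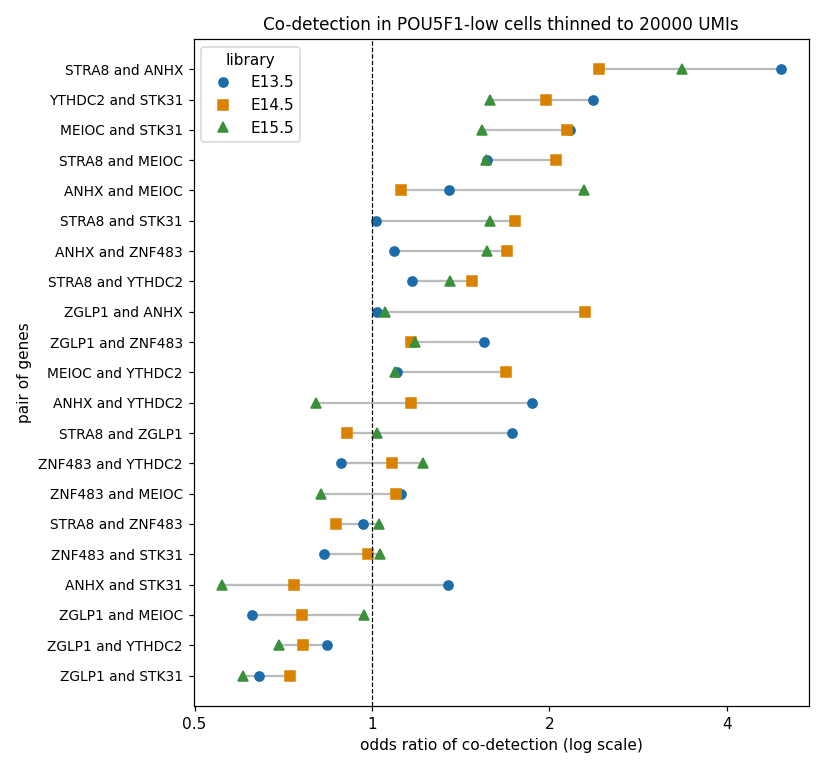
Odds ratio of co-detection (horizontal axis, log scale) for the 21 pairs in POU5F1-low cells thinned to 20000 UMIs; each symbol is 1 library, the grey line spans the libraries, and the dashed line marks 1. STRA8 with ANHX lies furthest right at 2.43 to 4.94, and ZGLP1 with MEIOC, YTHDC2 and STK31 lies left of 1 in every library.

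Between libraries, with 1 library for each mouse stage and so no test, 0 of the 7 genes differed by 2-fold with at least 20 CPM in the summed germ cells. Of all genes 0.498%, 0.238% and 0.324% did so in E14.5 over E13.5, E15.5 over E13.5 and E15.5 over E14.5, so a count of 0 among 7 says nothing particular about them. The nearest was ZNF483, at 24.997, 19.5 and 14.7 CPM. STRA8 was at 33.1, 22.9 and 36.5 CPM and MEIOC at 43.0, 38.7 and 34.2 CPM. Within states only ZGLP1 in SYCE3-high cells passed that size, at 24.8 CPM in E14.5 (exact Poisson 95% interval 17.9 to 33.6) against 6.77 in E13.5 (3.38 to 12.1) and 11.7 in E15.5 (8.60 to 15.7), and it rests on the 1 cell of 23 UMIs named above. In that state 4.09%, 1.83% and 2.40% of all genes passed it in the same pairs of libraries. The count was 0 too in the summed germ cells without shared barcodes.

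Of the genes whose levels most resembled STRA8 over 14 sums of library, state and MKI67 class, MEIS1, a homeobox factor, led with Pearson's r = 0.987 on log2(CPM + 1), before FAM174A and MEIG1 (both 0.985). For ZGLP1 they were GCNT2 (0.969), DPP7 (0.968) and AGGF1 (0.966), and for MEIOC the axis genes HORMAD1 (0.993) and SYCP2 (0.992) and the clock-associated repressor CIPC (0.991). They were ranked among 9462 genes with at least 20 CPM in 1 sum, and the sums share libraries and states, so r is a description.

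The other genes of the pathway moved with the states as follows. Of the partner and N6-methyladenosine list 13 of 15 were found and 7 were higher, 1 lower in POU5F1-low against POU5F1-high cells, with a median of 0.24 against 0.032 for all genes. MEIOSIN, the STRA8 partner, listed here under its older symbol BHMG1, was at 1.15 ± 0.743 CPM in POU5F1-high, 3.01 ± 0.636 CPM in POU5F1-low and 47.2 ± 3.13 CPM in SYCE3-high cells (SD, n = 3 libraries). Its log2 fold changes were 1.14 ± 0.35 (edgeR adjusted p = 0.00697) and 3.90 ± 0.21 (edgeR adjusted p = 7.36e-11), so its main gain came at the step where STRA8 was lower. The RNA exonuclease XRN1 rose at the first step from 16.1 to 37.9 CPM (0.72 ± 0.11, edgeR adjusted p = 1.60e-05). In SYCE3-high against POU5F1-low cells 7 of the 13 were higher and 1 lower, including the demethylase ALKBH5 (148 to 229.9 CPM, 0.55 ± 0.077). RBM46, an RNA-binding protein that works with MEIOC and YTHDC2, was higher in STRA8-positive cells (320.3 against 213 CPM, 0.54 ± 0.074, edgeR adjusted p = 1.40e-06), one of 2 of these 13 that were, with 0 lower and a median of -0.071.

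Of 14 retinoic acid genes tested 11 were higher in POU5F1-low than POU5F1-high cells and 1 lower (median 1.19), led by CRABP2 (3.27 to 105 CPM) and the receptor RARB (3.90 to 32.0 CPM). In SYCE3-high cells 4 were higher and 8 lower than in POU5F1-low cells (median -0.60), with the retinol importer STRA6 falling from 9.24 to 2.07 CPM. Of 16 BMP response genes 13 rose and 3 fell at the first step, among the former MSX1 (5.42 to 166 CPM) and GATA3 (18.7 to 149 CPM), and 1 rose and 10 fell at the second. Both lists thus had more genes higher at the first step and more lower at the second, the directions of ZGLP1 and STRA8. Of all genes 35.0% were higher at the first step and 27.3% lower at the second. Any link between these lists and ZGLP1 or STRA8 was not tested. Of 22 recombination genes 15 were higher and 3 lower at the first step and 20 higher and 0 lower at the second, and SPO11, which makes meiotic double-strand breaks, went from 0.404 to 41.1 CPM. Of 13 axis genes 12 were higher at the first step and 13 at the second, HORMAD2 from 3.60 to 69.3 CPM, but these genes include close companions of SYCE3. The 10 tested repressor genes, with PRC1.6 subunits such as L3MBTL2 (56.9 to 36.4 CPM), had 2 higher and 6 lower at the first step.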

How the data were processed

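Per the labels' protocols, cells were loaded on the 10x Genomics Chromium 3' v3.1 kit. Per the file headers, the authors deposited raw UMI counts for each feature and barcode that Cell Ranger 6.0.1 had made. The genome build with its annotation was not given in the sources used here. No coordinates or sequences are printed. Germ barcodes were counted as stated. Limits for POU5F1, SYCE3 and MKI67 were read off each gene's own histogram, and 3 cells past both state limits were placed with SYCE3-high. Counts were summed per library and class (at least 20 cells) with Python 3.11.15, numpy 2.4.6, scipy 1.17.1 and pandas 2.3.3, and tested in R 4.3.3 with edgeR 4.0.16 (filterByExpr, TMM, robust quasi-likelihood fit, library as block, Benjamini-Hochberg over all genes tested, threshold 0.05), with DESeq2 1.42.0 as an alternative. The fit was tested on simulated data. The library block comes from the design, since the classes of 1 library were made together. The libraries served as the replicates, and p-values measure the spread between 3 samples of 1 line that differ in mouse stage. CPM were not scaled by TMM and fold changes were. Levels are 3' UMI counts, 1 per molecule, so no gene length enters them.

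All germ cells of a library together held 31364271, 24342943 and 57505722 UMIs, so that 3 counts stand there for 0.0957, 0.123 and 0.0522 CPM. The sums per state or class were smaller, such as 1624110, 1691493 and 3917488 UMIs in SYCE3-high cells. In those sums 3 counts stand for more CPM, and low levels lie nearer to that floor. No doublet caller was run. The deepest 5% of germ barcodes of each library and those with UMIs of 2 or more of 14 somatic markers were left out as an alternative, which kept 926 barcodes. Of 139 list genes 131 were found, 3 of them under an older symbol. The members, lists and classes were chosen with earlier results of these data known. Within POU5F1-low cells the STRA8 classes left out 236, 159 and 412 cells between the limits. Named genes were the 7 members, the 2 called genes of each list with the largest fold in each contrast, and for STRA8, ZGLP1 and MEIOC the 3 genes with the highest correlation, of which the text gives a part. Alternatives were other scalings, filters, limits, depths and tools, and each library left out. Leaving out shared barcodes and scaling by library totals were chosen after seeing the data.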

Additional observations from a re-analysis of the deposited data

Results flagged for a closer look

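ZGLP1 and MEIOC moved in different directions between libraries when MKI67-high was set against MKI67-low within POU5F1-low cells. The log2 ratio of CPM + 1 for ZGLP1 was -0.12 in E13.5, 0.054 in E14.5 and -0.066 in E15.5, and for MEIOC -0.22, 0.32 and 0.096. STK31 did so between STRA8-positive and STRA8-negative cells, at 0.29, -0.099 and -0.086. Each library has 1 value, and the difference between libraries was not tested.

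Signal also appeared in 481 barcodes of at least 1000 and under 10000 UMIs with 2 to 20% mitochondrial UMIs, which enter no comparison. The 7 genes stood there at 26.3 CPM for STRA8, 47.3 for ZGLP1, 208 for ANHX, 27.4 for ZNF483, 46.3 for MEIOC, 27.4 for YTHDC2 and 90.5 for STK31, and each was above its level in mouse barcodes. Of these 481 barcodes 398 (82.7%) were shared with a germ barcode of another library.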

How the results depend on the processing

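Over 345 values of the 7 genes under the alternatives, 312 kept their direction and their side of the threshold, among them 91 of 91 in POU5F1-low against POU5F1-high. Without the library term (no replicate block) the number of genes called was 7 and 6 in the 2 state contrasts, 2 for MKI67 and 3 for STRA8 classes, so that only the MKI67 count moved by over 1.5 times. The MKI67 count of 4 was also 2 without the deepest and mixed barcodes and without shared barcodes. For SYCE3-high cells without shared barcodes no count is given, since E14.5 was the only library with 20 such cells. The 345 values include the fit with that lone sample, which is assumed to vary like the other groups. The STRA8 count of 4 was 2 without the deepest and mixed barcodes. The order of onset ZGLP1, STRA8, STK31, MEIOC, not named beforehand, held in 2 of 3 libraries without shared barcodes. Leaving out each library in turn gave 7 to 7, 6 to 7, 4 to 5 and 4 to 4 genes called in the 4 contrasts. The cause of these changes was not tested.

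Some values changed sign. ZGLP1 by MKI67 class was -0.054 with library totals and -0.043 without the deepest and mixed barcodes. ZNF483 by STRA8 class was -0.074 with classes set after thinning. STK31 by STRA8 class was 0.036 with library totals, 0.00098 without the library term, 0.0097 from 20000 UMIs, 0.40 without the deepest and mixed barcodes, 0.47 without shared barcodes, and 0.054 without E14.5 and 0.063 without E15.5 (-0.14 without E13.5). Genes called over all genes in the STRA8 contrast were 1429 higher and 1597 lower with edgeR, 395 and 566 with DESeq2, 553 and 644 without the library term, 667 and 860 without E15.5, and 349 and 424 without the deepest and mixed barcodes. In the MKI67 contrast they were 3791 and 3333 with edgeR, 2428 and 1316 with DESeq2, 1609 and 1359 without the library term, 1609 and 1337 without the deepest and mixed barcodes, 2436 and 2095 without shared barcodes, and 2668 and 2122 without E15.5. For SYCE3-high cells they were 4125 and 4117, then 2309 and 2424 without the deepest and mixed barcodes. STRA8-positive from 2 UMIs per 10000 was not run, since E13.5 and E14.5 had 11 and 5 such cells. Levels under 3 counts cannot be told from 0 at this depth.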
